A study of Mus musculus with 4 samples.

Results

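The 9 genes described here carry out the synthesis, breakdown and uptake of glutamine and the exchange of nitrogen through glutamate: Glul, Gls2, Glud1, Got1, Got2, Gpt2, Slc1a5, Slc38a1 and Slc38a2. They were chosen by gene symbol for their known roles, with earlier results of these data already known. All 9 were found among the 78028 gene rows of each count table. RNA came from 4 cultures that the labels call hepatocyte-like cells, each grown separately from E14TG2a, a mouse embryonic stem cell line. The sample titles also read mESCs, for mouse embryonic stem cells. Differentiation used the A-HIC protocol, whose name stands for advanced hepatic-inducing cocktail. The 4 libraries are 1 group and are numbered 1 to 4 after the labels, and no undifferentiated cells, liver or other control is analysed here. The labels do not name the agents of the cocktail or the days of culture. All 4 cultures share 1 parent line, so the spread between them is that of separate differentiations and not of separate animals.

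Glutamine is the main carrier of nitrogen between tissues. Glutamine synthetase makes it from glutamate and ammonia, glutaminase splits it back, and glutamate dehydrogenase and the transaminases connect glutamate with the tricarboxylic acid cycle. In adult liver these steps are divided in space: periportal hepatocytes hold the liver glutaminase and the urea cycle, and a thin pericentral ring holds glutamine synthetase. Proliferating and pluripotent cells also use glutamine heavily, taken up in part by the transporter encoded by Slc1a5.

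Libraries held 29.5 to 40.2 M counts, where M is mega. Levels are given as transcripts per M (TPM), which scale the deposited counts for gene length and library size. The label was set beside fixed cell type markers. Of 10 hepatocyte markers, 2 reached 1 TPM in all 4 libraries (Ttr and Hnf4a), and Fabp1 and Cyp2e1 had 0 counts in every library. This rule leaves out markers that passed in some libraries only. Alb, the albumin gene, passed in library 2 alone, with 7.19 TPM from 171 counts, against 0.455, 0 and 0.492 TPM in libraries 1, 3 and 4. Apoa1 missed the threshold in library 1 alone (0.705 TPM), and its level was 8.53 TPM in library 2, 1.03 TPM in library 3 and 3.57 TPM in library 4. All 8 pluripotency markers, all 10 parietal endoderm markers and all 8 fibroblast markers reached 1 TPM in all 4 libraries. Of 8 neural and astrocyte markers, 3 did (37.5%), against 20% of the hepatocyte markers and 63.4% of all protein-coding genes. Taken over all 4 libraries, the markers therefore go against the label, although library 2 held more hepatocyte marker RNA than the others. The libraries are called here by the label only as a name.

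All 9 genes were expressed at 1 TPM or more in every library, a level that 63.4% of 19918 protein-coding genes reached. They spanned from 13.5 TPM for Gls2 to 394 TPM for Glud1, with a median of 96.9 TPM against 7.59 TPM over all protein-coding genes. The order of the means was Glud1, Glul, Got1, Slc38a2, Got2, Slc1a5, Slc38a1, Gpt2 and Gls2. The range of Glul over the libraries overlapped with those of Glud1, Got1 and Slc38a2, whereas within each library Glud1 lay above Got1, and Got1 above Slc38a2. Slc1a5, Slc38a1 and Gpt2 overlapped with each other, and Gls2 lay below the other 8 genes throughout. This order depends in part on the gene length used, here the union of exons. With the longest transcript as length, Got1 (291 TPM) came before Glul (286 TPM) and Slc38a1 (112 TPM) before Slc1a5 (73.9 TPM), and in library 2 Got1 lay below Slc38a2 (237 against 256 TPM).

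**Figure D1:**
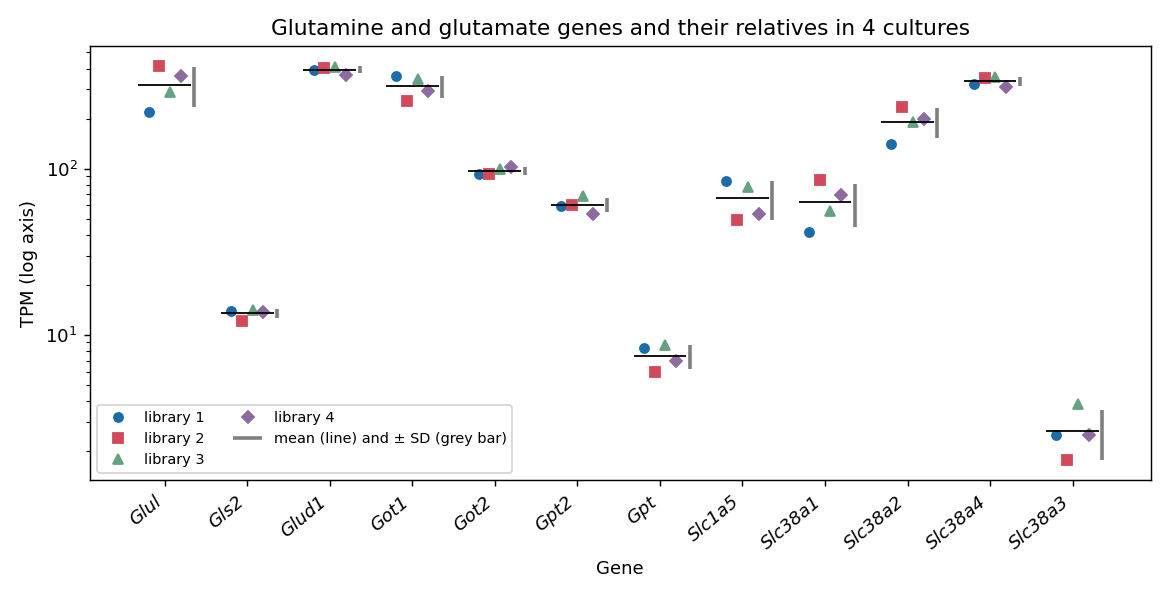
TPM on a log axis for the 9 genes and 3 relatives (Gpt, Slc38a4 and Slc38a3), with 1 point for each library, a black line at the mean and a grey bar for ± SD (n = 4). Glud1 and Got2 points lie close together, while Glul runs from 219 to 416 TPM, and Gls2 is the lowest of the 9 genes.

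Glul encodes glutamine synthetase, the enzyme that joins ammonia to glutamate. It stood at 219, 416, 287 and 359 TPM in libraries 1 to 4, from 7520, 14048, 7515 and 12424 counts, with a mean of 320 ± 85.7 TPM (SD, n = 4). Library 2 was the highest and library 1 the lowest, 1.90-fold apart, and only 2.13% of protein-coding genes had a higher mean. The pericentral genes that accompany Glul in adult liver were mostly low. Of 7 listed, 2 reached 1 TPM in all libraries: Oat, ornithine aminotransferase, at 207 ± 42.1 TPM, and Axin2, a target of Wnt signalling, at 10.6 ± 1.80 TPM. Slc1a2, the glutamate transporter of pericentral hepatocytes and astrocytes, stood at 0.218 ± 0.0932 TPM. Lgr5 had 2, 3, 0 and 2 counts, Cyp1a2 had 3, 0, 1 and 0, and Cyp2e1 had 0 in every library.

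Gls2 encodes the liver form of glutaminase, the mitochondrial enzyme that frees ammonia from glutamine. It stood at 13.9, 12.1, 14.1 and 13.8 TPM, a mean of 13.5 ± 0.906 TPM, so libraries 1, 3 and 4 were nearly level and library 2 was lower. Without library 2 its SD of log2(CPM + 1), where CPM is the count per M counts of the library, was 0.0448, against 0.131 with all 4.

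Related or opposing genes were also compared within libraries, as the log2 ratio of TPM + 0.1. For these ratios the exact two-sided sign-flip permutation test on 4 libraries cannot reach a p of 0.05, since at least 2 of the 16 sign assignments are as extreme as the data. In 7 of the 8 pairs the direction was the same in 4 of 4 libraries, which gives that smallest p. The exception was Glul over Glud1, with log2 ratios of -0.83, 0.04, -0.52 and -0.04 (exact permutation p = 0.375). With the longest transcript as length, Glul was below Glud1 in every library, in library 2 at 372 against 378 TPM. The exception thus depends on the gene length used.

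Glud1 encodes glutamate dehydrogenase, the mitochondrial enzyme that releases ammonia from glutamate and yields 2-oxoglutarate. It stood at 390, 405, 411 and 368 TPM, a mean of 394 ± 19.3 TPM, and was the highest of the 9 genes. Its libraries differed by no more than 1.12-fold. Its SD of log2(CPM + 1) was 0.0864, and 80.3% of the 10064 genes with a mean of 10 CPM or more had a larger one. Without library 4 that SD was 0.0493.

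Transaminases pass the amino group of glutamate to other keto acids. Got1 and Got2 encode the cytosolic and mitochondrial aspartate aminotransferases, which work together in the malate-aspartate shuttle. Got1 stood at 360, 256, 347 and 294 TPM, a mean of 314 ± 48.1 TPM, with libraries 1 and 3 above libraries 2 and 4. Got2 stood at 92.5, 93.0, 99.8 and 102 TPM, a mean of 96.9 ± 4.87 TPM, with no library apart from the rest. Got2 was below Got1 in every library, with a log2 ratio of -1.68 ± 0.23 (-1.06 with the longest transcript as length). Got1l1, a relative of Got1 known from testis, stood at 43.4 ± 12.5 TPM, with its lowest value, 26.8 TPM, in library 2, where Got1 was also lowest.

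Gpt2 encodes the mitochondrial alanine aminotransferase, and Gpt the cytosolic form whose activity in serum is used as a sign of liver damage. Gpt2 stood at 59.6, 60.7, 68.0 and 53.5 TPM, a mean of 60.5 ± 5.94 TPM, and its libraries differed by at most 1.27-fold. Gpt stood at 7.48 ± 1.22 TPM. Gpt was below Gpt2 in 4 of 4 libraries, by a log2 ratio of -3.01 ± 0.22 (-3.57 with the longest transcript). By these counts the mitochondrial form was the lower one of the aspartate pair and the higher one of the alanine pair. Got2 has near-identical copies, with a longest match of 1637 bases, and none were found for Got1. How many Got2 reads were lost to these copies is unknown.

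Slc1a5 (ASCT2) exchanges glutamine for other neutral amino acids across the plasma membrane. It stood at 84.6, 49.4, 77.5 and 53.6 TPM, a mean of 66.3 ± 17.4 TPM, with libraries 1 and 3 high and libraries 2 and 4 low. Its SD of log2(CPM + 1), 0.425, was the largest of the 9 genes, and 4.87% of genes with a mean of 10 CPM or more had a larger one. The related transporter Slc1a4 stood at 50.4 ± 5.38 TPM. Slc1a5 was above Slc1a4 in 4 of 4 libraries, by a log2 ratio of 0.36 ± 0.29 (0.93 with the longest transcript), but in library 2 the ratio was only 0.05.

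Slc38a1 and Slc38a2 (SNAT1 and SNAT2) import glutamine and other neutral amino acids together with sodium. Slc38a1 stood at 41.6, 84.8, 55.5 and 68.9 TPM, a mean of 62.7 ± 18.5 TPM, and library 2 was 2.04-fold above library 1. Slc38a2 stood at 140, 236, 191 and 198 TPM, a mean of 192 ± 39.4 TPM, and library 2 was 1.68-fold above library 1. Both were lowest in library 1 and highest in library 2, and Slc38a2 exceeded Slc38a1 by a log2 ratio of 1.63 ± 0.16. The SD covers the spread between libraries only, and with the longest transcript as length the ratio was 0.92. For Slc38a2 library 1 weighed most: without it the SD of log2(CPM + 1) was 0.128, against 0.267 with all 4 libraries. For Glul the same omission took the SD from 0.354 to 0.231.

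On chromosome 15, Slc38a1, Slc38a2 and Slc38a4 are consecutive protein-coding genes in the RefSeq annotation of GRCm38.p6. Slc38a4, a transporter abundant in liver and placenta, stood at 323, 350, 355 and 310 TPM. It was above Slc38a2 in 4 of 4 libraries, by a log2 ratio of 0.83 ± 0.29 (0.41 with the longest transcript). Its libraries lay close together, unlike those of Slc38a1 and Slc38a2. Slc38a3 (SNAT3), the main glutamine transporter of hepatocytes, stood at 2.64 ± 0.876 TPM and was below Slc38a2 by a log2 ratio of -6.15 ± 0.63. Slc1a2 was below Slc1a5 by a log2 ratio of -7.71 ± 0.71, a value that rests on 18 to 48 Slc1a2 counts and on the pseudocount of 0.1 TPM.

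**Figure D2:**
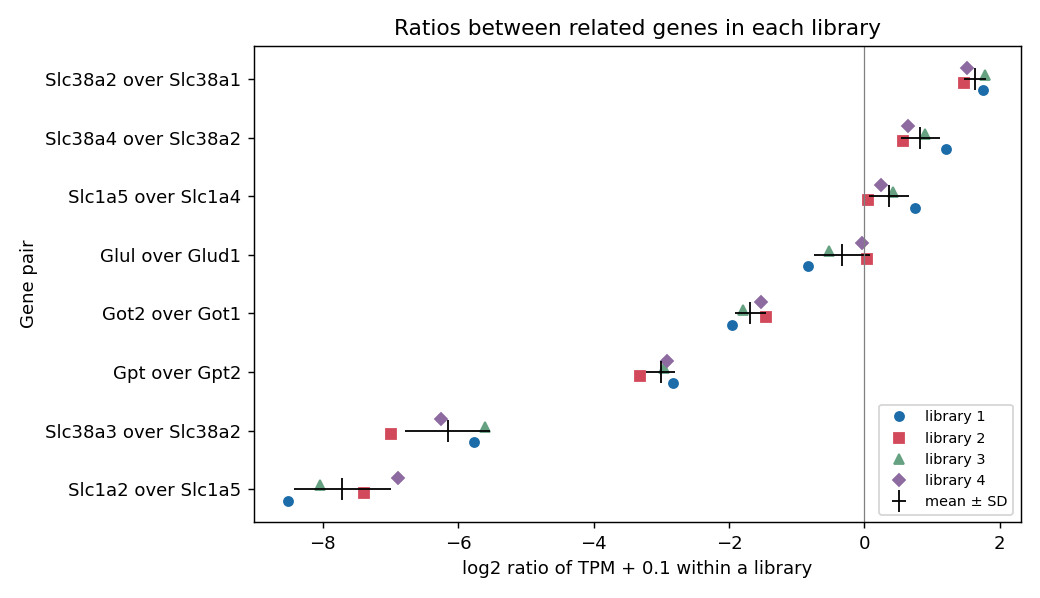
Log2 ratio of TPM + 0.1 within each library for 8 pairs of related or opposing genes, with 1 point for each library and a black cross bar for the mean ± SD (n = 4). Glul over Glud1 is the pair whose points lie on both sides of 0, and Slc38a2 over Slc38a1 is the tightest.

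Set against their own means, the 9 genes did not vary alike. Glul, Slc38a1 and Slc38a2 were lowest in library 1 and highest in library 2. Got1 and Slc1a5 were highest in library 1 and lowest in library 2. Glud1, Got2, Gpt2 and Gls2 had an SD of log2(CPM + 1) between 0.0827 and 0.159, against a median of 0.149 over the 10064 genes with a mean of 10 CPM or more. The lowest of these was that of Got2, which was 0.0413 without library 2. The biological coefficient of variation, edgeR's estimate of the spread beyond counting error, ran from 0.105 for Glud1 to 0.219 for Slc38a1, beside a common value of 0.205 for 17398 genes. By this measure Slc1a5, the gene with the largest SD of the 9, stood at 0.204, and 45.1% of the 17398 genes had a larger value.

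**Figure D3:**
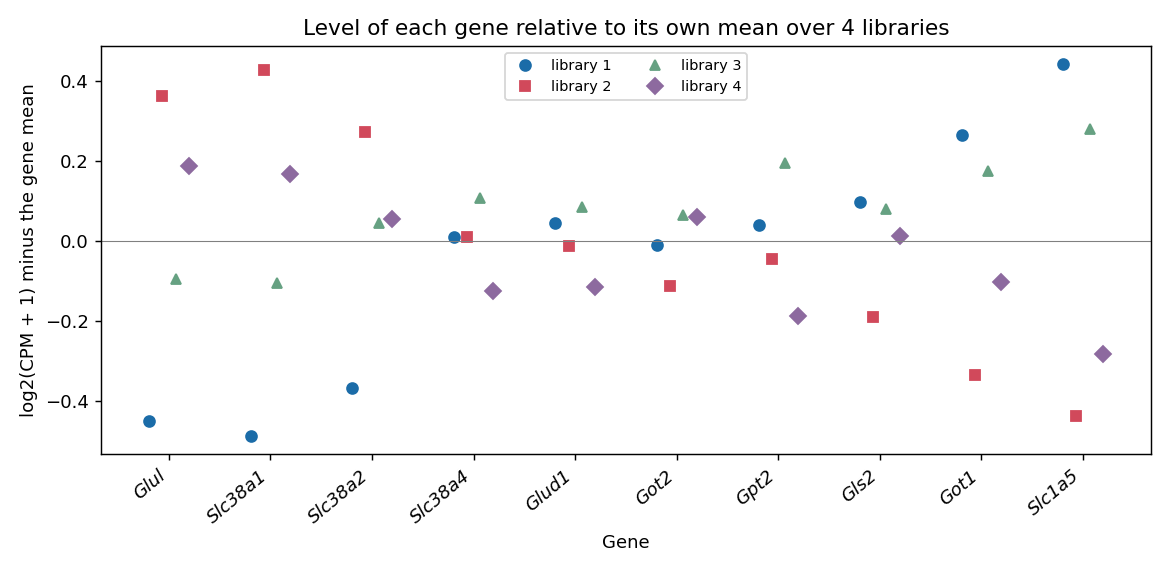
Level of each gene in each library as log2(CPM + 1) minus the gene's mean over the 4 libraries, with 1 point for each library. Library 1 lies lowest and library 2 highest for Glul, Slc38a1 and Slc38a2, and the reverse holds for Got1 and Slc1a5.

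Each library was then compared with the other 3 across all genes (edgeR quasi-likelihood test, Benjamini-Hochberg adjustment at 0.05). Of 17398 genes, 0% passed in each of the 4 comparisons, and none of the 9 genes did. At an unadjusted p under 0.05 there were 3 of the 9 genes for library 1, 2 for library 2 and 0 for libraries 3 and 4, and DESeq2 called 0 of the 9 in each (0.046%, 0.391%, 0.0172% and 0.0172% of all genes). These DESeq2 shares are of genes with an adjusted p under 0.05. With edgeR, 926, 1284, 274 and 269 of all 17398 genes had an unadjusted p under 0.05 for libraries 1 to 4. In library 1 the log2 difference from the other libraries was -0.67 ± 0.22 (SE) for Glul, -0.73 ± 0.24 for Slc38a1 and -0.55 ± 0.16 for Slc38a2 (edgeR, adjusted p = 0.723 for each). In library 2 it was 0.62 ± 0.24 for Slc38a1 and -0.38 ± 0.15 for Got1 (edgeR, adjusted p = 0.626 for each). With library 3 left out, library 1 differed in 5 of the 9 genes, Glul, Slc38a1 and Slc38a2 lower and Got1 and Slc1a5 higher, where 12.4% of all genes passed. With library 4 left out, library 2 differed in 5, Glul, Slc38a1 and Slc38a2 higher and Got1 and Slc1a5 lower, where 14.4% passed. Both fits set libraries 1 and 2 on opposite sides, so their directions are not independent of each other. With library 1 left out, library 3 differed in Glul and Slc38a1, lower, and Slc1a5, higher (7.35% of genes passed). With library 2 left out, library 4 differed in Glul and Slc38a1, higher, and Slc1a5, lower (7.8%), and these fits likewise share libraries 3 and 4. Each of the 4 fits takes its spread from the 2 libraries that remain on the other side, which were libraries 2 and 4 or libraries 1 and 3. In the other fits with a library left out no gene passed. With no filter on low counts 3 of the 9 genes passed for library 1 (0.836% of genes), 1 for library 2 (1.19%) and 0 for libraries 3 and 4 (0.00255% and 0.0153%).

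Sums of the cell type markers differed between the libraries too. The summed level of the 8 pluripotency markers was 7077, 3762, 6315 and 4784 TPM in libraries 1 to 4, that of the 10 parietal endoderm markers 3125, 10075, 3792 and 7664 TPM and that of the 8 fibroblast markers 1999, 3811, 1720 and 2840 TPM. Library 2 had the lowest sum of the first list and the highest of the other lists, while the fibroblast sum was lowest in library 3. By gene, 7 of the 8 pluripotency markers were lowest in library 2, as were Got1 and Slc1a5, but 6 were highest in library 1 and 2 in library 3. All 10 parietal endoderm markers were lowest in library 1 and highest in library 2, as were Glul, Slc38a1 and Slc38a2. All 8 fibroblast markers were lowest in library 3, with 6 highest in library 2 and 2 in library 4. One gene weighed heavily in each sum: Dppa5a, a gene of pluripotent cells, made up 43.1% to 53.9%, Sparc, a matrix protein, 30.4% to 39.4% and Col1a1, a collagen chain, 44.0% to 46.5%. The lowest markers of these lists were Sox2, Sox7 and Postn, with means of 133, 14.2 and 13.9 TPM. The 10 hepatocyte markers summed to 9.88, 55.4, 12.7 and 26.8 TPM, and the 8 neural and astrocyte markers to 131, 107, 138 and 124 TPM, mostly Tubb3 (83.3% to 85.2%), with Aqp4 at 0 counts. Among the 10 hepatocyte markers, 4 had counts in every library, and 3 of these were lowest in library 1 and highest in library 2. The share of all genes with the same order was not counted. The part of these cell types in the levels of the 9 genes was not tested. In bulk RNA a smaller number of cells of a type and less RNA per cell cannot be told apart.

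Among 10063 other genes with a mean of 10 CPM or more, those closest to the profile of Slc1a5 over the 4 libraries were Uchl1, Chchd10 and Tpd52l1, with root mean square differences of 0.00361, 0.0232 and 0.0244 on the log2 scale. Uchl1, a ubiquitin hydrolase, stood at 133, 76.7, 122 and 84.0 TPM. Of the other 8 genes Got1 was the closest, at 0.146, with 361 genes closer. With 4 libraries this likeness is a description only.

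The promoters of members that varied in opposite ways were read from RefSeq's table (GRCm38.p6, not the build of the count tables), which held 6 of the 9 genes: Glul, Glud1, Got1, Got2, Gpt2 and Slc38a2. Shown 5′ to 3′ are the 250 bases before the start site of Glul (chr1:153899679-153899928, plus strand) and Slc38a2 (chr15:96699729-96699978, minus strand), both highest in library 2, and of Got1 (chr19:43524606-43524855, minus strand), highest in library 1. Capitals mark a match to a searched motif.
Glul: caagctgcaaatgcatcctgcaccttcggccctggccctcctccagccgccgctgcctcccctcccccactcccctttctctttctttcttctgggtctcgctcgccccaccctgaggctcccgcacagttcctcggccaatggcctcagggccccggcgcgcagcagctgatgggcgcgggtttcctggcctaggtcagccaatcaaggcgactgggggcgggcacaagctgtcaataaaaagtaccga
Slc38a2: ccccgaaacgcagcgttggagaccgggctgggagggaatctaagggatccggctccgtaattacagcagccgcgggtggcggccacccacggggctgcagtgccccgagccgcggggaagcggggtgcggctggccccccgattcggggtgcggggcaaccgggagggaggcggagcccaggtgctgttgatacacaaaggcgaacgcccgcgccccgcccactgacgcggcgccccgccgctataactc
Got1: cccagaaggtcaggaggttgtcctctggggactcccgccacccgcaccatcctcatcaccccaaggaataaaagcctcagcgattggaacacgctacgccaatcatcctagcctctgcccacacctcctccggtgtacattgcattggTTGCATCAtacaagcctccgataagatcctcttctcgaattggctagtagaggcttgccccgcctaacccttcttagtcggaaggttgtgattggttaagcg

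These windows were 64.8%, 72.0% and 54.4% G and C, against a median of 52.4% over 32851 promoters. They were searched on both strands for the C/EBP-ATF response element that amino acid shortage acts through (TGATGNAA), the TCF/LEF element of Wnt targets (CTTTGAT) and the E-box (CACGTG). The first was found in Got1 alone of the 6 genes, on the minus strand of the printed sequence, 102 to 95 bases before the start. It was present in 3.45% of all promoters, and in 4 of the 52 pathway genes with a promoter in the table: Asns, Got1, Pycr1 and Slc7a11. The TCF/LEF and E-box letters, present in 3.21% and 6.02% of promoters, were in none of the 6 and in 5 and 6 of the 52 pathway genes. A match is a description of the letters and not a measured binding site.

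The wider pathway was taken from 6 lists of 65 genes, which include the 9. In all, 52 of 65 were at 1 TPM or more in every library, and 43 of the 56 outside the 9, 76.8% against 63.4% of protein-coding genes. The 56 had a median of 34.8 TPM. Of the 65, 59 had enough counts for the edgeR test, and 0 of these passed for any library, as for all 17398 genes tested.

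Beside Glul, Gls2 and Glud1, the first list held Nit2, an omega-amidase, at 61.4 ± 6.26 TPM. Of 14 transaminases 11 were expressed (78.6%, against 63.4% of protein-coding genes, which is the comparison for each list that follows). Psat1, the serine synthesis transaminase that uses glutamate, was the highest at 365 ± 31.6 TPM, above Got1 and Oat. The lowest were transaminases typical of adult liver or kidney: Agxt with 0 counts in every library, Tat with 2, 0, 0 and 0, and Aadat with 4, 6, 2 and 4. At 0 counts, as many as 3 fragments could have been missed (0.149 to 0.203 CPM, taking 2 counts a fragment), by counting error alone.

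Of 12 glutamine transporters and their partners 10 were expressed (83.3%). Slc7a5 and Slc3a2, the 2 chains of the exchanger that trades glutamine for leucine, stood at 462 ± 24.0 and 326 ± 12.7 TPM, both above every transporter among the 9 genes. Slc6a19, Slc6a14 and Slc38a5 were the lowest, at 0.0886, 0.299 and 1.60 TPM. Of 11 glutamate and aspartate transporters 7 were expressed, 63.6% and so close to the share of all genes. The mitochondrial aspartate-glutamate carriers Slc25a13 and Slc25a12, partners of Got1 and Got2 in the shuttle, stood at 119 ± 14.4 and 37.1 ± 2.87 TPM. Slc1a7, Slc1a2 and Slc1a6 were the lowest, each with a mean under 1 TPM.

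Of 11 enzymes listed with those that spend the amide nitrogen of glutamine, 10 were at 1 TPM or more (90.9%). Asns, asparagine synthetase, stood at 677, 372, 543 and 398 TPM, a mean of 497 ± 141 TPM, with libraries 1 and 3 high as for Slc1a5. Ctps1 and Ppat, which make CTP and start purine synthesis, stood at 174 ± 8.58 and 148 ± 9.20 TPM. Ctps2 and Nadsyn1 stood at 32.5 ± 3.49 and 8.67 ± 1.87 TPM, and Cps1, the urea cycle enzyme that takes ammonia directly, at 0.435 ± 0.178 TPM. Of 13 genes that turn glutamate into glutathione, proline, N-acetylglutamate or GABA, or break such products down, 10 were expressed (76.9%). Gclc and Gclm, the subunits of the first enzyme of glutathione synthesis, stood at 149 ± 17.0 and 64.7 ± 13.9 TPM, and Aldh18a1, the first enzyme of proline synthesis, at 71.4 ± 5.49 TPM. The lowest were Gad1 and Gad2, which make GABA, at 0.487 and 1.097 TPM, and Nags, which makes the activator of Cps1, at 1.28 TPM.

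**Figure D4:**
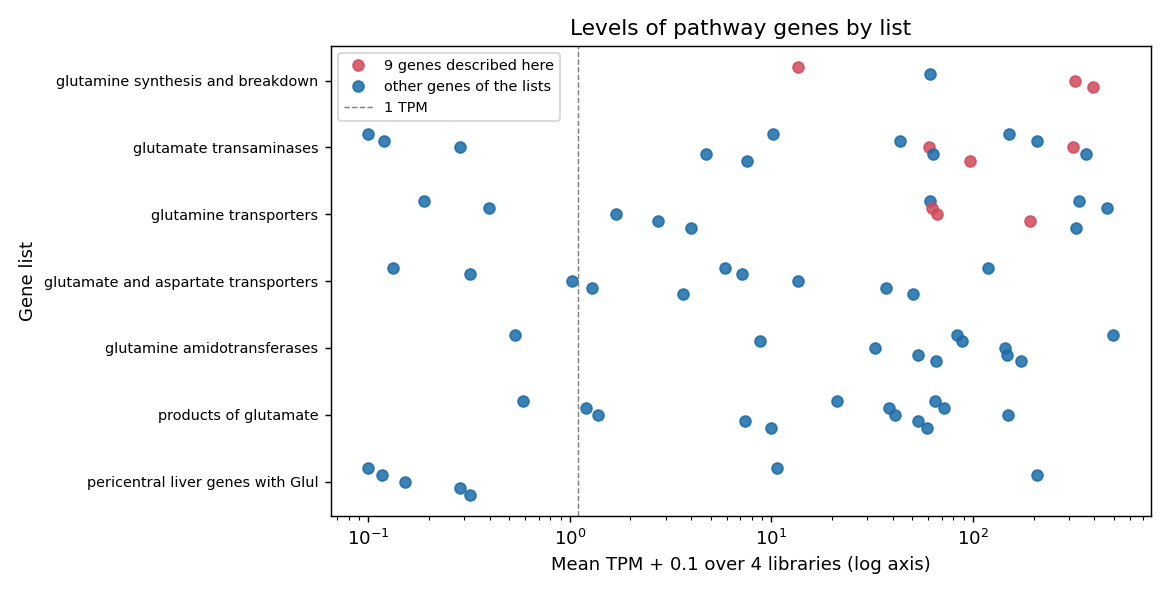
Mean TPM + 0.1 over 4 libraries, on a log axis, for each gene of the 6 pathway lists and of the pericentral list, with the 9 genes in red, other genes in blue and a dashed line at 1 TPM. The 9 genes lie between 13.5 and 394 TPM, while 5 of the 7 pericentral genes lie below the line.

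Near-identical copies took few counts. Rows with at least 95% identity to a member over 150 bases or more were found for Glul (1 row), Glud1 (2), Got2 (3) and Slc38a1 (1), and held at most 0.146%, 0.860%, 0.988% and 0% of the member's counts in any library. How reads with several alignments were counted is not given, so shares lost to copies are unknown. The libraries keep no strand, and Gls2 shares up to 97 exonic bases with Spryd4 on the other strand, Glul 116 with Teddm2 and Got2 217 with Gm45760, so reads there cannot be assigned.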

How the data were processed

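The authors deposited 1 table of raw gene counts for each of 4 libraries. Per the submitters' processing notes STAR and featureCounts were used with GRCm39 (mm39); their versions and options and the annotation release are not stated in these sources. Even numbers made up 60.0% to 62.6% of counts between 1 and 8, so both ends of a pair may have been counted. From the deposited counts, CPM and TPM were computed with gene lengths (union of exons) from GENCODE M21, built on GRCm38. Of 78028 rows, 48797 had a length, holding 98.7% to 98.9% of counts. Log2 ratios used TPM + 0.1. Tests used edgeR 4.0.16 (TMM, filterByExpr, quasi-likelihood) and, as an alternative, DESeq2 1.42.0, in R 4.3.3. The edgeR test was checked on simulated data. The SE of an edgeR log2 difference was the difference divided by the square root of its F. Python 3.11.15, pandas 2.3.3 and numpy 2.4.6 were used. Genes named are the 9 members, every gene of a pair, the 3 highest and 3 lowest of each pathway list and of the pericentral list, the highest and lowest of each marker list, and the 3 genes nearest in profile to the member with the largest SD. Got1l1, Hnf4a, Alb, Apoa1, marker genes at 0 and motif-bearing genes beyond that rule were chosen after their values were seen. The members and lists were chosen with earlier results of these data known. One relative of the listed genes is not reported here.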

Additional observations from a re-analysis of the deposited data

Results flagged for a closer look

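In groups of 4 libraries, a value was singled out where its gap to the nearest other library divided by the whole range exceeded Dixon's 95% critical value. Of 62 results checked, 5 met this, and chance alone singles out about 1 in 20. Gls2 was low in library 2, at 12.1 TPM against 13.8 to 14.1 TPM in the other 3, a gap of 0.838 of the range. Nags was high in library 1, at 2.53 TPM against 0.798 to 0.981 TPM (0.894 of the range). Gad1 and Slc1a6 were high in library 2, at 0.735 and 1.37 TPM, with gaps of 0.924 and 0.916 of the range. Tat had 2 counts in library 1 and 0 in the others, a gap of 1 times the range, which is at the limit of counting.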

How the results depend on the processing

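The means of all 8 pair ratios kept their sign under every alternative run (a pseudocount of 1, the longest transcript as gene length, and each library left out). Their sizes depended on length: with the longest transcript the log2 ratio was -1.06 for Got2 over Got1, -3.57 for Gpt over Gpt2, 0.92 for Slc38a2 over Slc38a1, 0.41 for Slc38a4 over Slc38a2 and 0.93 for Slc1a5 over Slc1a4. With a pseudocount of 1, Slc1a2 over Slc1a5 was -5.75. In library 2 the ratio of Glul over Glud1 changed sign with the longest transcript (372 against 378 TPM). With the longest transcript Slc38a1 stood at 112 TPM and Got2 at 139 TPM, so Slc38a1 moved ahead of Slc1a5 (73.9 TPM), and Got1 (291 TPM) ahead of Glul (286 TPM). The numbers of genes that set libraries 1 to 4 apart were 0 with edgeR, 8, 68, 3 and 3 with DESeq2, and 328, 469, 1 and 6 with no filter on low counts. Without the filter 3 of the 9 genes passed for library 1 (Glul, Slc38a1 and Slc38a2, lower) and 1 for library 2 (Slc38a1, higher). With each other library left out the numbers ran from 0 to 2206, 0 to 2552, 0 to 1303 and 0 to 1386. Without library 1, library 3 differed in 3 of the 9 genes, and without library 2, library 4 did; in each case these were Glul, Slc1a5 and Slc38a1. The cause was not tested. All 9 genes also passed at 5 TPM, at 1 CPM and with each library left out. No comparison of paired samples was possible because the 4 libraries form a single group.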
